A study of Mus musculus with 8 samples.

Results

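To ask what the loss of iNOS does to macrophages that have not been activated, bone marrow-derived macrophages from iNOS-/- mice were compared with those from WT mice before any stimulation. The comparison rests on 4 of the 8 arrays in the series, 2 labelled iNOS-/- without stimulation and 2 labelled WT without stimulation, and it takes in all 25697 probes of the array. Bone marrow came from female mice 8 weeks of age, either C57BL/6J or iNOS-deficient on that background (strain B6.129P2-Nos2tm1Lau/J), and was cultured with GM-CSF at 10 ng per ml for 7 days. The other 4 arrays, which the labels call M1, hold cells of both genotypes. These cells had in addition received LPS (200 ng per ml) and IFN-γ (10 ng per ml) for 6 h. The M1 arrays serve here to show where the unstimulated difference is particular. They also entered the scaling of the arrays, the detection filter and the estimate of the spread, and so affect the unstimulated test. The deletion is carried by every cell of the mouse, so that the culture lacked iNOS from the first day. Separate mice are not named for the arrays in the labels, so p-values measure the spread between arrays, which may be technical.

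iNOS, encoded by Nos2, makes nitric oxide from arginine once a macrophage has been activated by microbial products and interferon. Nitric oxide is toxic to microbes, and it also modifies proteins of the cell that makes it. GM-CSF is a growth factor under which bone marrow precursors divide and mature into a mixture of macrophages and cells with dendritic cell features. Dendritic cells present antigen on MHC class II molecules to helper T cells, whereas macrophages are specialised for engulfment and lysosomal digestion.

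Values are given as log2 scaled intensity, that is, the deposited probe intensity after scaling of the arrays to their mean, with values under 1 set to 1. A probe was taken as detected where its detection p-value, the share of negative control beads that were brighter, was under 0.05. Differences are iNOS-/- minus WT on this log2 scale, with the standard error of limma. A difference was called where its adjusted p lay below 0.05 (limma, Benjamini-Hochberg over the 13868 probes tested). Where a gene had several probes, the one with the highest mean represents it. The other probes did not always share its call. Of 2625 genes with several tested probes, 1220 had any probe called, and in 441 of these all were called in one direction. In 767 some probes were not called, and 12 had probes called in both directions. Levels of different genes are not compared, since each probe has its own brightness. Each array had between 12053 and 12673 detected probes among the 4 unstimulated ones, 46.9% to 49.3% of all probes, and the number of arrays limits the precision of what follows.

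The unstimulated arrays of the genotypes did not lie nearest to each other. Over the tested probes the median absolute difference between the 2 arrays of a group was 0.16 in both unstimulated groups. It was 0.48 to 0.49 between unstimulated iNOS-/- and unstimulated WT arrays, 0.52 to 0.53 between unstimulated WT and WT M1 arrays, and only 0.34 to 0.37 between unstimulated iNOS-/- and WT M1 arrays. The iNOS-/- M1 arrays lay farthest out, at 0.67 to 0.82 from the arrays of the other groups. Unstimulated iNOS-/- cells were thus nearer to activated WT cells than to their own unstimulated WT control. Nothing in the labels gives a batch, and whether the unstimulated WT cultures differed for another reason than genotype cannot be told apart from the genotype.

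Nos2 itself was examined first, because it is the targeted gene. Its only probe is shown here because its place decides what it can say about the genotype. The probe is a 50-base sequence that starts at position 3546 of the transcript. Whether it lies inside or outside the part removed in the knockout allele is not given in the sources used here.
Nos2 probe: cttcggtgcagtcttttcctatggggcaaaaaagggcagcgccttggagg
The log2 intensity of Nos2 was 0.08 and 0.00 in unstimulated WT and 0.96 and 1.85 in unstimulated iNOS-/- cells, and the probe was not detected on any of these 4 arrays (detection p-values 0.381, 0.543, 0.242 and 0.104). The fitted difference passed the threshold (adjusted p = 0.0260, limma), but between arrays that all lie at background it gives no fold, and it was lost in 6 of 14 alternative settings. After LPS and IFN-γ the probe read 7.45 and 7.04 in WT and 7.52 and 7.69 on the arrays labelled iNOS-/-. Since this probe was detected on arrays labelled iNOS-/-, it does not check the genotype, and all directions below rest on the labels.

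Before stimulation the 2 genotypes differed widely. Of the 13868 probes tested, 4447 were called (32.1%), 2206 higher (15.9%) and 2241 lower (16.2%) in iNOS-/- cells. Counted by gene, 3454 of 10163 were called (34.0%), 1723 higher (17.0%) and 1731 lower (17.0%). Counts for the gene lists below stand against these shares. The median difference over all genes was -0.02, and the median size of the difference was 0.45. Although the calls were balanced in number, they were not in size, since 207 genes were at least 8-fold higher and 46 at least 8-fold lower. Among the called genes, 244 were detected on both iNOS-/- arrays and on neither WT array, and 76 the other way round. Detection on any 2 arrays was enough for a test, so such genes could enter through the group where they were high. The arrays of the 2 groups did not overlap in 7292 genes (71.8%), 3531 higher (34.7%) and 3761 lower (37.0%), so that lack of overlap between 2 arrays and 2 arrays is common here and says little of a single gene.

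The calls depended on brightness and on the number of arrays. Split by mean level into 4 equal parts, genes were called in 15.1% of the dimmest and 46.0% of the brightest. Restricted to the 8008 genes detected on all 4 arrays, 2994 were called, 1382 higher and 1612 lower. A fit of the 4 unstimulated arrays alone called 3775 probes, against 4447 in the fit of all 8. With any 1 of the 4 unstimulated arrays left out, the count of called probes fell to between 2685 and 2868. On chromosome 11, which carries Nos2, 329 of 1053 tested probes were called (31.2%), close to the share over all probes. This count covers the whole chromosome, and the region around Nos2 was not tested by itself.

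**Figure D1:**
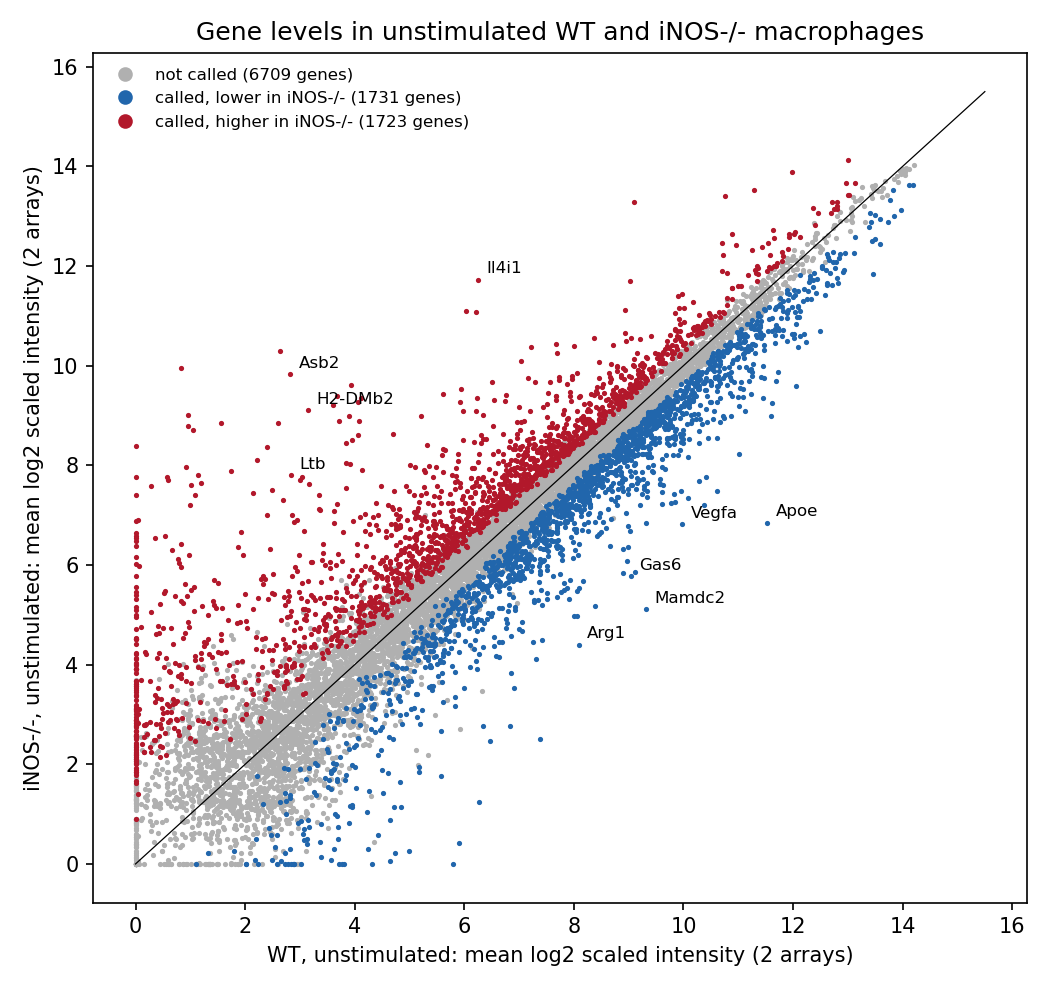
Mean log2 scaled intensity of each tested gene in unstimulated WT (horizontal axis) and unstimulated iNOS-/- macrophages (vertical axis), each the mean of 2 arrays, with the line of equal level. The 1723 genes called higher reach farther from the line than the 1731 called lower, and Asb2 and Apoe are among the farthest of those detected on all 4 arrays.

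The genes farthest above WT included antigen presentation genes, receptors and a cyclin. Asb2, the substrate-binding subunit of a ubiquitin ligase, had a log2 intensity of 3.11 and 2.55 on the WT arrays and of 9.83 and 9.84 on the iNOS-/- arrays. The difference was 7.01 ± 0.19 (SE, n = 2 arrays per group), or 129-fold (adjusted p = 4.65e-05, limma). Under neqc, an alternative normalization, it was 5.45. H2-DMb2, a chain of the chaperone that loads peptides on MHC class II, read 2.99 and 3.32 in WT and 9.13 and 9.09 in iNOS-/- cells, a difference of 5.96 ± 0.15 (SE). For both genes the WT arrays lay near the dimmest detected probes while the iNOS-/- arrays were bright. Groups that do not overlap were a condition for naming them.

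Ffar2, a receptor for short-chain fatty acids, read 3.74 and 3.61 in WT and 9.39 and 9.41 in iNOS-/- cells, a 52.8-fold difference. Ccnd2, the D-type cyclin that opens the cell cycle downstream of growth factors, read 3.99 and 3.78 against 8.94 and 9.03, a 34.2-fold difference. Il4i1, a secreted amino acid oxidase of antigen-presenting cells, was already bright in WT, at 6.20 and 6.29, and reached 11.70 and 11.75. The other genes among the 12 with the largest increases were Amica1 (now Jaml, an adhesion molecule of leukocytes), Asgr2 (a chain of the asialoglycoprotein receptor), Adra2a (an adrenergic receptor), Serpina3g (a protease inhibitor), Bzrap1 (now Tspoap1), EG433016 (now Cstdc4) and Ltb (lymphotoxin β). Over the 12 genes the adjusted p ran from 2.05e-05 to 0.000443 (limma) and the widest gap between the 2 arrays of a group was 1.11, for Amica1 in WT.

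Among the unstimulated arrays some genes were detected in iNOS-/- cells alone, so that only a lower limit of the difference is known. Adam23, a membrane protein of the disintegrin family, read 1.66 and 0.00 in WT, where it was not detected, and 9.92 and 10.01 in iNOS-/- cells. This is at least 177-fold higher, counted against the lowest signal among detected probes (adjusted p = 0.000330, limma). Itgae, the integrin chain CD103, was at least 91.6-fold higher, and all 5 of its tested probes were called higher. Dpp4 (the peptidase CD26) and Apol7c were at least 78.4-fold and 74.3-fold higher. On the log2 scale these limits are 7.46, 6.52, 6.29 and 6.22, and they depend on the normalization. Under neqc the differences were smaller, at 5.86, 4.86, 4.63 and 4.55. WT M1 cells did express these genes. There Adam23 read 9.07 and 9.22, Itgae 7.04 and 7.24, Dpp4 8.64 and 8.62, and Apol7c 9.99 and 9.89.

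The genes farthest below WT were led by Apoe, which carries cholesterol out of macrophages. Apoe had a log2 intensity of 11.49 and 11.57 in WT and of 6.87 and 6.84 in iNOS-/- cells, a difference of -4.68 ± 0.10 (SE), so that WT cells were 25.6-fold higher (adjusted p = 2.74e-05, limma). Arg1, which competes with iNOS for arginine, read 8.18 and 7.99 in WT and 4.65 and 4.16 in iNOS-/- cells, a difference of -3.68 ± 0.19 (SE). Retnla, a secreted marker of alternatively activated macrophages, read 8.97 and 9.25 against 5.67 and 6.04. Groups that do not overlap were a condition for naming these 3 genes.

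Gas6, the bridging ligand that lets macrophages engulf dying cells, read 9.13 and 8.95 in WT and 5.82 and 5.72 in iNOS-/- cells, a 9.66-fold fall. Vegfa, the blood vessel growth factor, fell from 9.98 and 9.97 to 6.85 and 6.79, and both of its tested probes were called lower. Npy, a neuropeptide, fell from 10.34 and 10.39 to 7.26 and 7.15. Mamdc2, the forkhead factor Foxq1 and the glycolytic enzyme Eno2 completed the 9 genes of these 12 whose call held in every setting tried. OTTMUSG00000016703 (now Gm14461), the fatty acid transporter Slc27a6 and the ubiquitin ligase subunit Fbxo32 were lower by 4.06, 3.57 and 3.21 on the log2 scale. Their calls were lost without any 1 of the 4 unstimulated arrays, and that of Fbxo32 also without either WT M1 array. Each call held in a fit of the 4 unstimulated arrays alone, and all 3 tested probes of Fbxo32 were called lower. The main fit shares its spread with the M1 arrays, where Fbxo32 read 3.30 and 0.87 in iNOS-/- cells.

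Among the unstimulated arrays fewer genes were detected in WT alone, and at lower levels. Bex4 read 5.75 and 6.06 in WT and was not detected in iNOS-/- cells, which makes it at least 12.2-fold lower. Fam110c, 2310045A20Rik (now Sel1l3), 1700112C13Rik (now Prss46) and the sulfatase Arsg were at least 11.3-fold, 9.63-fold, 6.43-fold and 5.84-fold lower. Fam110c and 1700112C13Rik were detected only on the unstimulated WT arrays and were tested through these alone. Under neqc the log2 differences from Bex4 to Arsg ran from -2.05 to -1.19, smaller than these limits (-3.60 to -2.55). The call of Arsg was lost without either WT array and in a fit of the 4 unstimulated arrays alone.

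**Figure D2:**
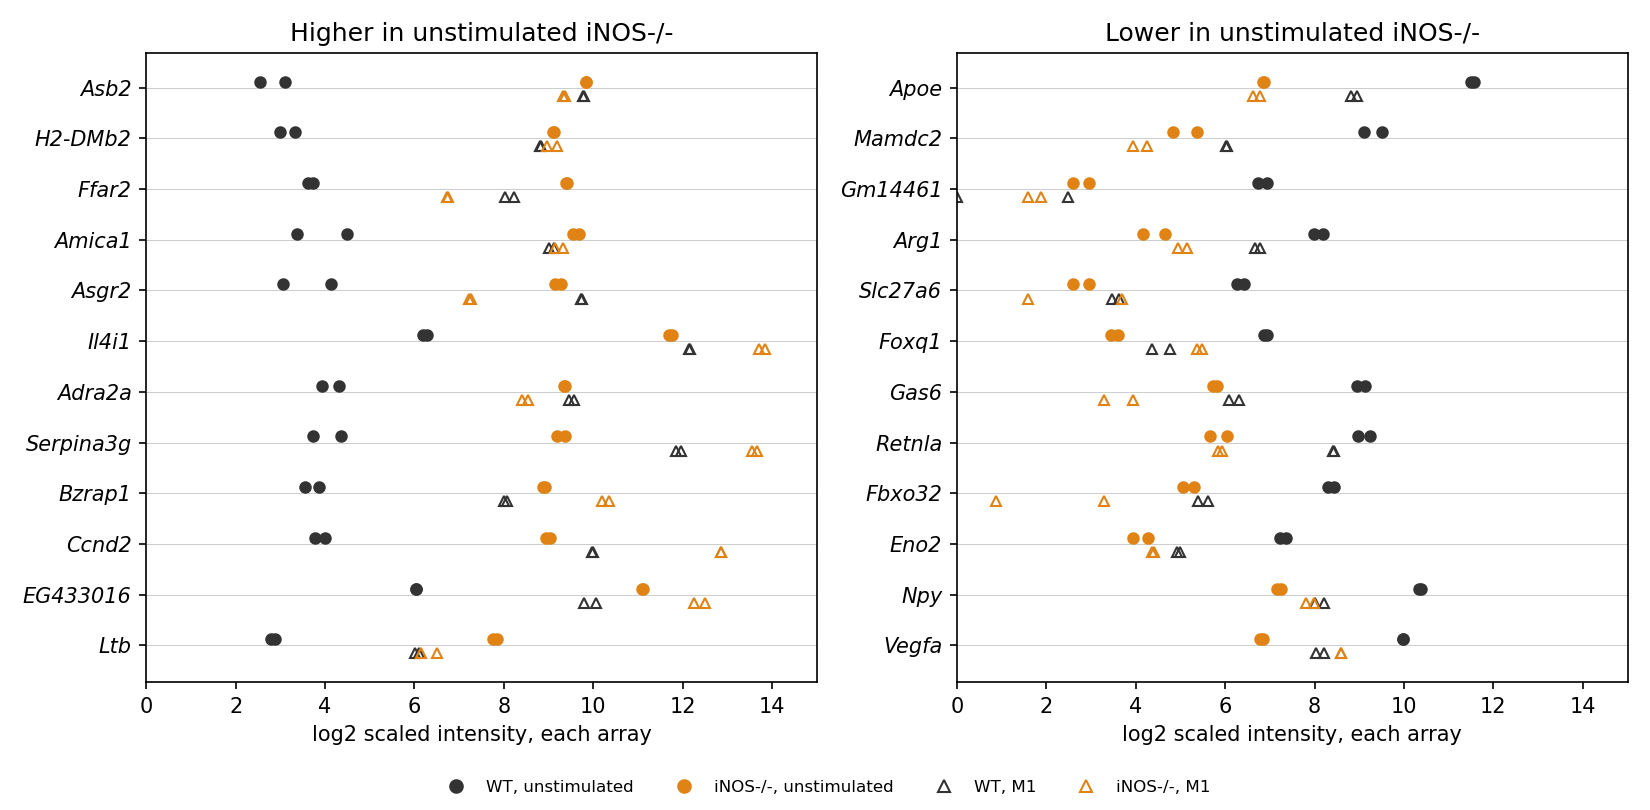
Log2 scaled intensity on each array for the 12 genes with the largest differences each way that were detected on all 4 unstimulated arrays. Filled circles are unstimulated and open triangles M1 arrays, WT in black and iNOS-/- in orange. In all 12 genes on the left the WT M1 triangles lie nearer to the unstimulated iNOS-/- circles than to the unstimulated WT circles.

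Activated WT cells give a scale for these differences. The 12 genes with the largest increases had mean log2 intensities between 2.83 and 6.25 in unstimulated WT, between 7.80 and 11.73 in unstimulated iNOS-/- and between 6.06 and 12.15 in WT M1 cells. In all 12 the WT M1 mean lay nearer to the unstimulated iNOS-/- mean than to the unstimulated WT mean. For the 12 with the largest decreases this held for 10, the exceptions being Arg1 and Retnla. These values share the unstimulated WT arrays and are given side by side, with no test.

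Markers of cell types moved with genotype, and their part in the results was not tested. Summed over 15 genes, dendritic cell markers came to 1141 and 1147 units of scaled intensity on the WT arrays and to 15537 and 14679 on the iNOS-/- arrays, and WT M1 arrays gave 17606 and 18341. Bright probes weigh most in such sums, here among them Ccl17 (13.36 and 13.21 in iNOS-/- cells) and Il4i1 (11.70 and 11.75). Of the 13 dendritic cell markers tested, 10 were called higher and none lower, with a median difference of 3.55 (2.78 with undetected members at their limits, 1.39 to 3.68 over the settings tried and 1.51 under neqc). Zbtb46, the transcription factor that defines classical dendritic cells, read 3.11 and 2.48 in WT and 5.43 and 5.34 in iNOS-/- cells. Fscn1, which bundles actin in dendrites, rose by 4.07 ± 0.27 (SE), and Ccr7, the receptor that guides dendritic cells to lymph nodes, by 3.55 ± 0.17. Ccl17 rose by 4.20 ± 0.09, from 9.05 and 9.13 to 13.36 and 13.21. By contrast Itgax (CD11c) and Batf3 did not pass the test, at 0.38 ± 0.15 and 0.23 ± 0.14, and Flt3 and Xcr1 were not detected on any unstimulated array.

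Macrophage markers were bright in both genotypes, as the label of the culture says. Their sum was 45369 and 45382 in WT and 32548 and 32997 in iNOS-/- cells, with 16 of 20 detected on all 4 arrays. Of the 18 tested, 7 were called lower and 2 higher, and the 2 were 1 without either iNOS-/- array. Trem2, a lipid-sensing receptor, fell from 12.09 and 12.09 to 10.36 and 10.40, Cd68, a lysosomal membrane protein, by 1.58 ± 0.09, and Mertk, the receptor for Gas6, by 1.48 ± 0.10. Lyz2, Adgre1 (F4/80) and Csf1r, which define the lineage, did not pass the test, at -0.13 ± 0.10, 0.08 ± 0.11 and -0.40 ± 0.12, and Msr1, Timd4 and Vsig4 were not detected. In bulk RNA, fewer cells of a type and less RNA per cell cannot be told apart.

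Markers of other myeloid cells were also measured. Mast cell and basophil markers summed to 37 and 50 in WT and to 407 and 407 in iNOS-/- cells, and 4 of the 5 tested were called higher. Cpa3, a mast cell protease, was not detected in WT and was at least 15.8-fold higher in iNOS-/- cells, whereas the defining Mcpt1, Mcpt4, Mcpt6, Mcpt8 and Ms4a2 were not detected on any of the 4 arrays. Granulocyte markers summed to 1393 and 1396 in WT and to 1962 and 1914 in iNOS-/- cells. S100a9, an alarmin of neutrophils, was at least 38.7-fold higher, while Mpo, Prtn3 and Ctsg were undetected. Of the 10 granulocyte markers tested 5 were called higher, which fell to 3 or 2 with any 1 of the 8 arrays left out. The 1 called lower became 2 without WT replicate 2 or iNOS-/- replicate 1. Monocyte markers summed to 4317 and 4646 in WT and to 2832 and 3035 in iNOS-/- cells. Of 6 tested, 2 were called lower, among them the chitinase-like Chil3 (by 1.16), and 4 were not called. This is 33.3%, near the 34.0% of all genes, and Chil3, at 11.47 and 11.48 in WT, weighs heavily in the sum.

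Markers of lymphocytes, red cells and stroma were measured as well. Lymphocyte markers summed to 8 and 7 in WT and 41 and 37 in iNOS-/- cells, with Cd3e, Cd3d, Cd3g and Ms4a1 undetected, and Thy1 the only one of 2 tested that was called, a call lost without either iNOS-/- array. Erythroid markers summed to -2 and -11 against 29 and 24, with Hba-a1 the only one of 3 tested that was called, against 2 without either WT M1 array. None of the 3 stromal markers tested was called, and the sums were 3314 and 3398 against 3632 and 3846.

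**Figure D3:**
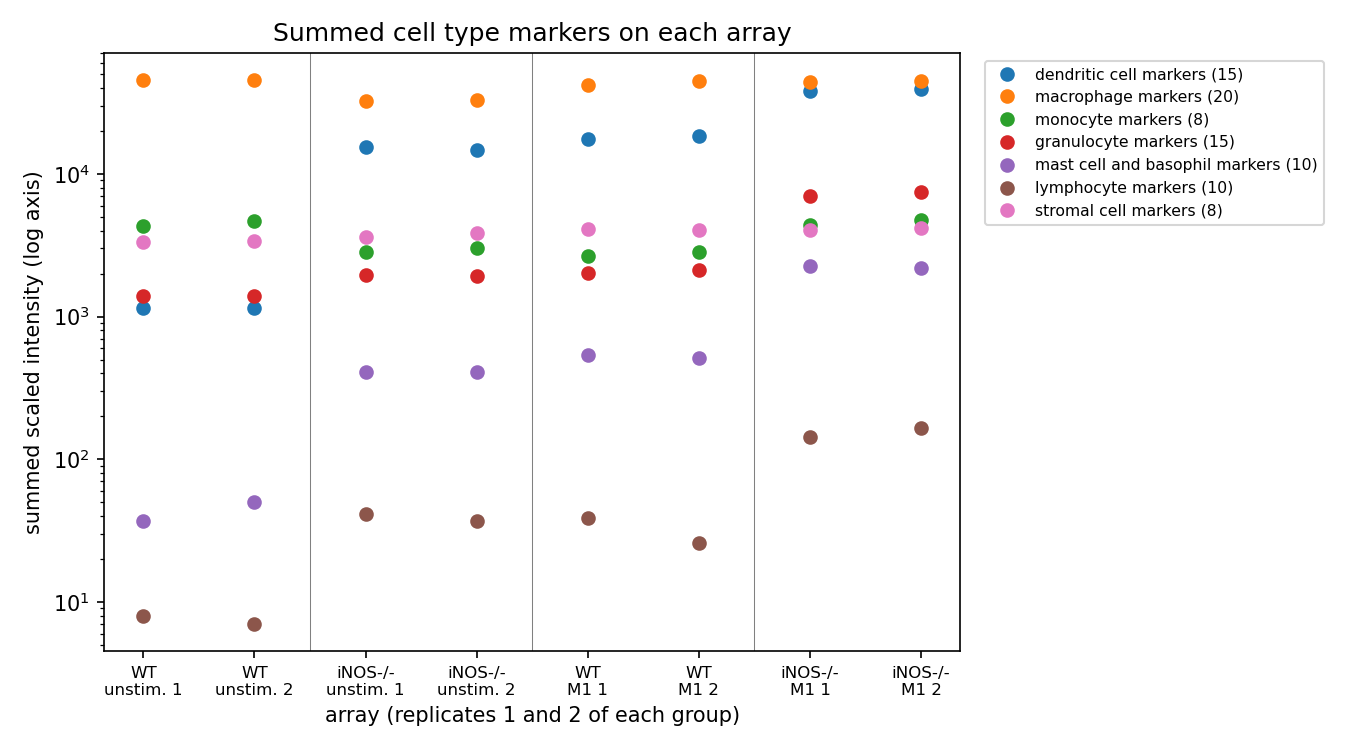
Scaled intensity summed over the markers of each cell type on each of the 8 arrays, on a log axis, with the number of markers on the array in parentheses. Bright probes weigh most in each sum. Erythroid markers, whose sums include values below 0, are not drawn. Dendritic cell markers rise from 1141 and 1147 on the unstimulated WT arrays to 15537 and 14679 on the unstimulated iNOS-/- arrays, and macrophage markers fall from 45369 and 45382 to 32548 and 32997.

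MHC class II presentation genes were higher in iNOS-/- cells without exception. All 10 tested were called higher, 9 of them detected on all 4 arrays, against 17.0% of all genes, and the count was 10 in every alternative setting. The median difference was 2.28, against -0.02 over all genes. Their promoters are printed because MHC class II genes are controlled together through the X and Y boxes, the latter an inverted CCAAT motif bound by NF-Y. RefSeq promoters (GRCm38.p6) were given for 7 of the 10 genes. The letters TGATTGG, searched on both strands in the 250 bases before the start site, occurred in 6 of the 7, and in 7.23% of all 32851 promoters. Capitals mark these letters.
H2-Eb1 promoter, chr17:34305762-34305818, plus strand: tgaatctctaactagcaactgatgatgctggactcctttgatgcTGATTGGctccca
H2-DMb2 promoter, chr17:34145113-34145169, plus strand: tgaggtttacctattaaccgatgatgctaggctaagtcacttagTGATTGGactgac
H2-Oa promoter, chr17:34092290-34092346, plus strand: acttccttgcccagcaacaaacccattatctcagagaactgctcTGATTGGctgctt
H2-Aa promoter, chr17:34287861-34287917, minus strand: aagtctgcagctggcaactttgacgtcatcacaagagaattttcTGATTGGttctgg
A match in letters is a description of the promoter, not evidence of binding in these cells.

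Ciita, the master coactivator that MHC class II promoters require, read 6.04 and 5.84 in WT and 9.51 and 9.54 in iNOS-/- cells, a difference of 3.58 ± 0.11 (SE, adjusted p = 5.94e-05, limma). The classical chains rose from high levels. H2-Eb1 went from 10.72 and 10.79 to 13.36 and 13.43, H2-Ab1 from 11.95 and 12.01 to 13.92 and 13.86, and H2-Aa from 11.30 and 11.19 to 12.36 and 12.26. Cd74, the invariant chain that occupies the groove until loading, rose by 1.14 ± 0.09. Some nonclassical chains were near the dimmest detected probes in WT. H2-Oa, part of the inhibitor of the loading chaperone, went from 2.76 and 3.31 to 7.71 and 7.83. H2-Ob was detected on only 1 WT array and rose by 4.59 ± 0.60. H2-DMa and H2-DMb1 rose by 1.45 ± 0.10 and 1.50 ± 0.09, both far less than H2-DMb2.

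Ligands that costimulate T cells were higher as well. Of 9 tested, 7 were called higher and none lower, with a median of 2.49 (2.02 with undetected members at their limits, and 1.41 under neqc). Cd40, the receptor through which helper T cells license antigen-presenting cells, read 4.11 and 4.05 in WT and 8.90 and 8.89 in iNOS-/- cells, a difference of 4.81 ± 0.08 (SE). Cd80 and Cd86, the ligands of CD28, rose by 2.49 ± 0.10 and 2.04 ± 0.10. Pdcd1lg2 (PD-L2) rose by 3.46 ± 0.12, whereas Cd274 (PD-L1) read 11.11 and 11.13 in WT and 10.97 and 10.83 in iNOS-/- cells and did not pass the test (adjusted p = 0.114, limma). Before stimulation Tnfsf4 (OX40 ligand) was detected only in iNOS-/- cells, at least 4.06-fold higher.

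MHC class I presentation differed less and not in one direction. Of 10 genes tested, 6 were called higher and 1 lower, with a median of 0.94. Psme2, an activator of the immunoproteasome, rose by 1.42 ± 0.08, and the peptide transporter chains Tap1 and Tap2 by 1.15 ± 0.11 and 1.04 ± 0.08. The class I heavy chain H2-K1 read 7.01 and 6.92 in WT and 5.97 and 5.95 in iNOS-/- cells, and its call was lost without any 1 of the 4 unstimulated arrays. B2m, the light chain, read 13.92 and 13.92 against 13.67 and 13.72 and did not pass the test.

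Genes of cell division were higher in unstimulated iNOS-/- cells. Among mitosis and spindle genes 16 of 18 tested were called higher and none lower, with a median of 1.57. Plk1, a mitotic kinase, read 6.23 and 6.39 in WT and 8.64 and 8.57 in iNOS-/- cells, a difference of 2.29 ± 0.11 (SE). Birc5 and Kif11, which act on the spindle, rose by 2.18 ± 0.09 and 2.16 ± 0.15, and Top2a, which untangles chromosomes, by 2.13 ± 0.09. Ube2c, which marks mitotic cyclins for destruction, was undetected in WT and at least 2.66-fold higher.

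The promoters of these genes are shown because many carry a CCAAT box and a cell cycle homology region. Of 16 with a RefSeq promoter, 13 held ATTGG, against 33.8% of all promoters, and 6 held TTTGAA, against 16% of all, both strands searched. Capitals mark either motif.
Ube2c promoter, chr2:164769862-164769915, plus strand: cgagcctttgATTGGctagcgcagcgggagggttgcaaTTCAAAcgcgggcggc
Cdc20 promoter, chr4:118437344-118437371, minus strand: acagttgggtTTTGAAggagCCAATgaa
Cdc20, which activates the same destruction machinery as Ube2c, read 6.63 and 6.79 in WT and 8.60 and 8.65 in iNOS-/- cells. The list of 18 includes Anln, Birc5 and Nusap1, which were called higher and held neither motif.

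DNA replication and nucleotide supply genes moved the same way, with 18 of 23 called higher and 1 lower and a median of 1.39. The count of 18 fell to 11 without WT replicate 2. Pole, the leading-strand polymerase, rose by 2.32 ± 0.23, Tk1, which salvages thymidine, by 2.24 ± 0.17, and Tyms, which makes thymidylate, by 1.95 ± 0.10. Mcm5, a subunit of the replicative helicase, went from 7.94 and 8.00 to 9.76 and 9.72. Against the list, Pcna, the sliding clamp, read 7.26 and 7.03 in WT and 6.20 and 6.19 in iNOS-/- cells and was called lower.

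Signalling genes of cytokine and interferon pathways were partly raised before any interferon had been added. Of 18 IRF and STAT factors with their feedback inhibitors, 11 were called higher and 2 lower, with a median of 0.71. Cish and Socs2, feedback inhibitors induced through STAT5, the factor that GM-CSF activates, went from 8.91 and 8.96 to 11.15 and 11.09 and from 10.06 and 9.90 to 11.44 and 11.43. Stat5a itself rose by 1.24 ± 0.10. Stat4, detected on 1 WT array, rose by 4.49 ± 0.39. Irf1 read 10.75 and 10.58 in WT and 9.66 and 9.65 in iNOS-/- cells, a difference of -1.01 ± 0.10. Irf2 also fell, by 0.52 ± 0.10, and the count of 2 lower was 1 without WT replicate 1 or either iNOS-/- array.

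Interferon-stimulated genes were higher in 14 of 26 tested and lower in 1, with a median of 0.50, and the count of 14 was 9 without iNOS-/- replicate 1. Gbp5, a guanylate-binding protein, read 2.94 and 2.77 in WT and 5.68 and 5.88 in iNOS-/- cells. Mx1, an antiviral GTPase, rose by 2.60 ± 0.32, and Isg15, a ubiquitin-like modifier read by a probe filed under LOC100038882, by 1.83 ± 0.14. Rsad2, another antiviral enzyme, went the other way, from 8.41 and 8.28 to 7.70 and 7.76. NF-kB subunits and inhibitors were higher in 8 of 11 and lower in none, with a median of 1.03, led by Nfkbie (2.65 ± 0.12), Relb (1.41 ± 0.14) and Nfkb2 (1.39 ± 0.21), whereas Rela read 9.78 and 9.73 against 9.84 and 9.88.

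Cytokines, chemokines and their receptors did not share a direction. Of the M1 cytokines 42.9% were called, against 34.0% of all genes. Of 14 M1 cytokines 5 were called higher and 1 lower, with a median of 0.43 (0.00 to 0.68 over the settings tried), and the 5 were 3 without either WT array. Il1b rose from 7.30 and 7.29 to 9.65 and 9.69, and Tnf from 6.42 and 6.22 to 7.24 and 7.36. Il6 was undetected in WT and at least 2.66-fold higher. Il15 read 7.77 and 7.79 against 7.39 and 7.37, and its call was lost without either WT array, iNOS-/- replicate 2 or WT M1 replicate 2.

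Among 18 chemokines 8 were called higher and 5 lower, with a median of 0.67 (0.03 to 0.90 over the settings tried). Besides Ccl17, the monocyte attractants Ccl7 and Ccl2 rose by 3.11 ± 0.14 and 2.50 ± 0.22. Pf4 (listed as Cxcl4), Ccl3 and Ccl6 fell by 1.49 ± 0.12, 1.22 ± 0.07 and 1.15 ± 0.11 from log2 intensities above 11 in WT. Of 9 chemokine and chemoattractant receptors, 2 were called higher, Ccr7 and Fpr2, and 4 lower, with a median of -0.59 (-1.18 to -0.37 over the settings tried). Cxcr4, which retains cells in the marrow, fell from 9.91 and 9.73 to 7.44 and 7.43, and the decoy-like Ccrl2 from 9.04 and 9.03 to 6.78 and 6.59.

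Among 26 cytokine receptors and their antagonist, 7 were called higher and 3 lower, with a median of 0.03 (-0.04 to 0.22 over the settings tried). This is 38.5% called, near the 34.0% of all genes. Among receptors undetected in WT, Il2ra (CD25) was at least 39.6-fold and Il18r1 at least 30.1-fold higher. Il1r2, a decoy receptor for IL-1 that was detected on 1 WT array, rose by 5.97 ± 0.35, from 2.95 and 1.85 to 8.30 and 8.44. Il18r1 read 0.00 on both WT arrays and 7.35 and 7.47 in iNOS-/- cells. Il7r, Tnfrsf1b and Il10rb fell by 1.63 ± 0.09, 1.41 ± 0.12 and 1.09 ± 0.11. The chains of the GM-CSF receptor differed little, with Csf2ra at -0.34 ± 0.12 and Csf2rb2 at 0.17 ± 0.08 not called and Csf2rb rising by 0.69 ± 0.09.

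**Figure D4:**
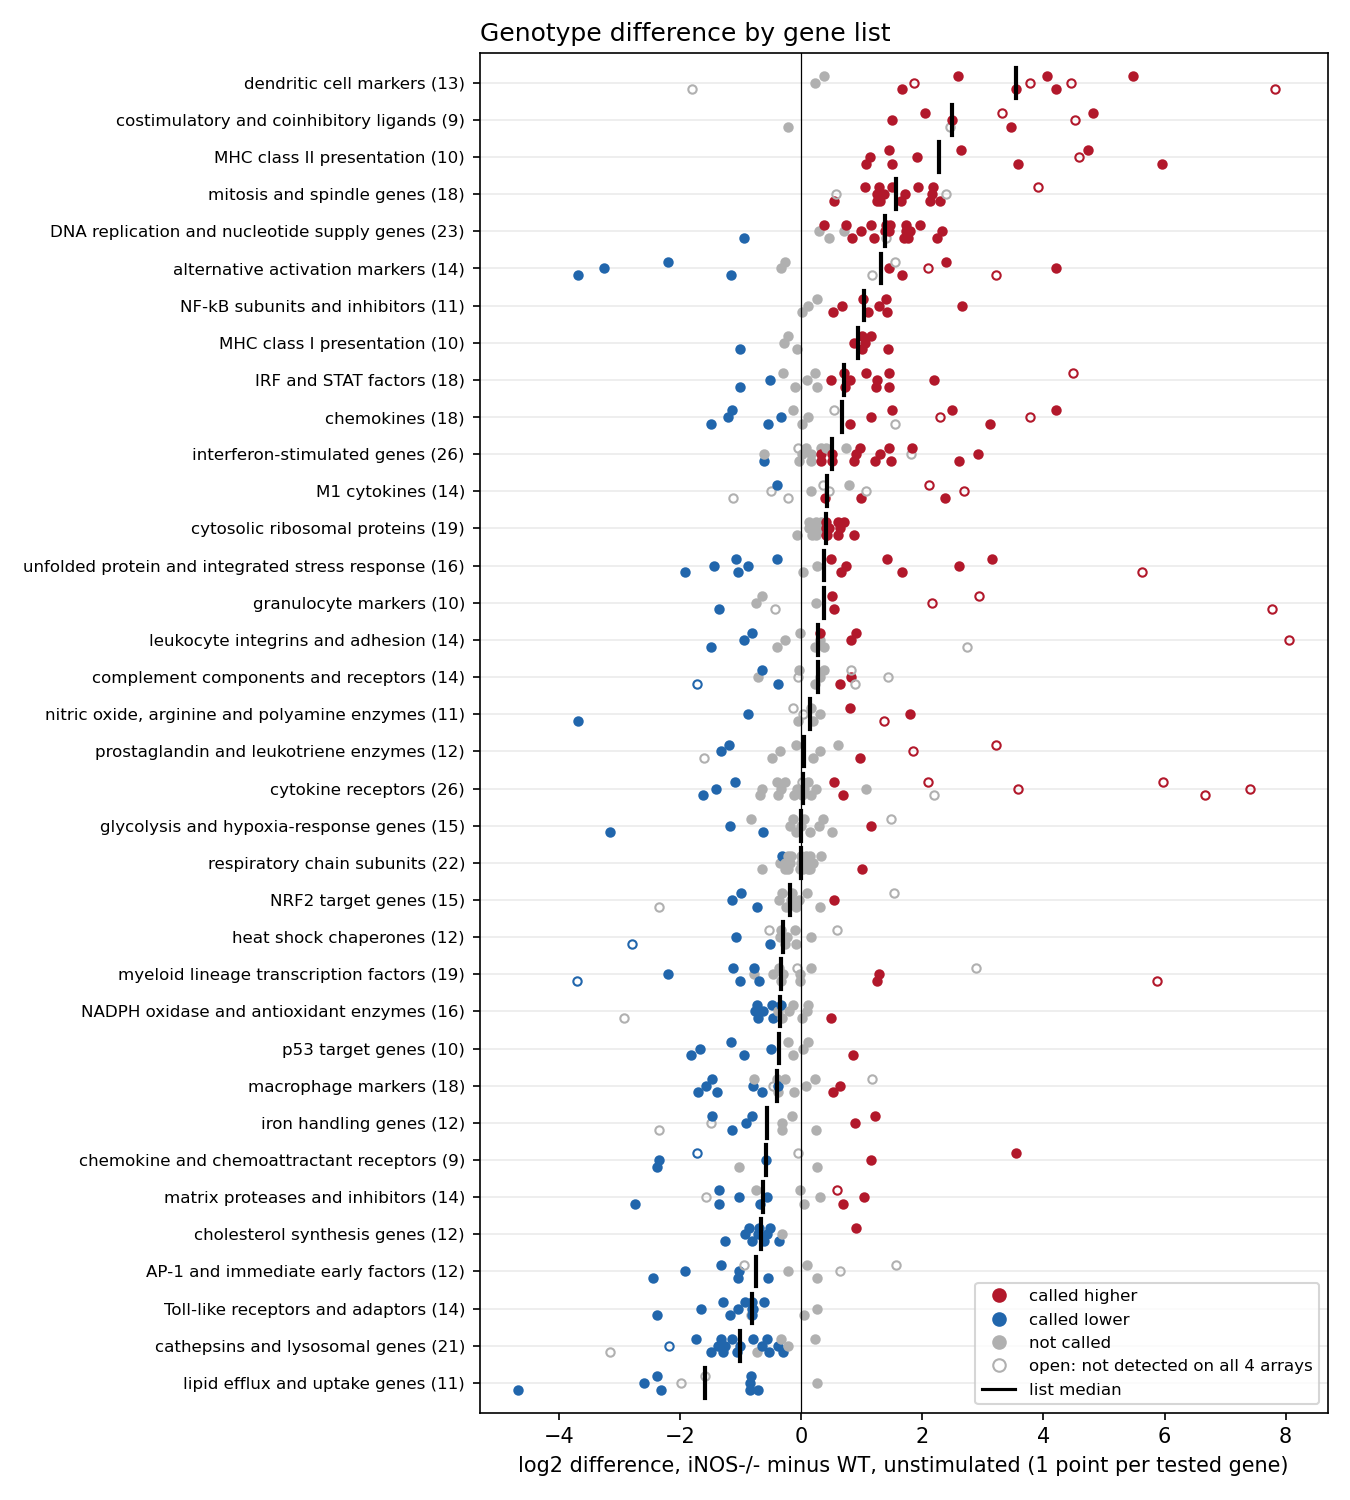
Log2 difference, iNOS-/- minus WT, before stimulation, for each tested gene of the lists with at least 9 tested members, ordered by the list's median (black bar), with the number tested in parentheses. Red and blue points were called higher and lower, grey points were not called, and open points were not detected on all 4 arrays. Dendritic cell markers lead with a median of 3.55, and lipid efflux and uptake genes come last at -1.59, but under neqc normalization these medians are 1.51 and -0.74, against 2.30 for MHC class II and -0.90 for cathepsins and lysosomal genes.

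Genes of lipid handling and digestion made up the opposite end. Lipid efflux and uptake genes were called lower in 8 of 11 and higher in none, with a median of -1.59 (-0.85 with undetected members at their limits, and -2.19 to -0.74 over the settings tried), against 17.0% of all genes lower. After Apoe the largest falls were of Fabp5, a fatty acid-binding protein, from 10.29 and 10.28 to 7.71 and 7.66, of Apoc2 by 2.38 ± 0.10 and of the phospholipid transfer protein Pltp by 2.32 ± 0.16. Nr1h3, which encodes the sterol receptor LXRα that induces Apoe, Apoc2 and Pltp, fell by 0.71 ± 0.14. Pparg, the lipid-sensing receptor that GM-CSF maintains in alveolar macrophages, read 9.09 and 8.89 in WT and 6.90 and 6.68 in iNOS-/- cells, a difference of -2.20 ± 0.18.

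Cholesterol synthesis genes were called lower in 10 of 12 and higher in 1, with a median of -0.66. These differences were small, and the 10 became 5, 5, 3 and 4 without WT replicate 1, WT replicate 2, iNOS-/- replicate 1 and iNOS-/- replicate 2. Dhcr7 fell by 1.25 ± 0.27, Sc4mol by 0.93 ± 0.09 and Lss by 0.86 ± 0.16. Srebf2, the factor that induces the pathway, went the other way, from 7.72 and 7.71 to 8.60 and 8.64.

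Cathepsins and lysosomal genes were called lower in 16 of 21 and higher in none, with a median of -1.02. The count of 16 was 13 under quantile normalization, another alternative, and 14 in a fit of the 4 unstimulated arrays alone. It stayed 16 under neqc, and 1 member was called higher under quantile normalization and under neqc. Ctsk, a protease of bone and matrix breakdown, read 10.68 and 10.77 in WT and 8.99 and 8.99 in iNOS-/- cells. Acp5, a lysosomal phosphatase, fell by 1.50 ± 0.20. Ctss, which trims the invariant chain for MHC class II, fell by 1.05 ± 0.15, from 11.69 and 11.64 to 10.65 and 10.58. Ctsc read 11.51 and 11.58 against 11.78 and 11.76 and did not pass the test.

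Toll-like receptors and their adaptors were mostly lower in unstimulated iNOS-/- cells. Of 14 Toll-like receptors and adaptors, 11 were called lower and none higher, with a median of -0.82. The count of 11 was 7 without iNOS-/- replicate 2. Tlr8 and Tlr7, which sense RNA, fell from 7.05 and 7.08 to 4.75 and 4.62 and from 9.63 and 9.59 to 8.02 and 7.89. Tlr13, which reads bacterial ribosomal RNA, fell by 1.29 ± 0.13, and Ly96 (MD-2), the LPS-binding partner of TLR4, by 1.17 ± 0.11. Tlr4 itself fell by 0.61 ± 0.13, Cd14 by 0.79 ± 0.13, and Tlr2 and Myd88 did not pass the test. Among 7 Fc receptors 4 were called lower and 2 higher, with a median of -0.44, and the 2 were 1 without WT replicate 2 or either iNOS-/- array. Fcgr4, an activating receptor for IgG, read 10.57 and 10.67 in WT and 7.37 and 7.58 in iNOS-/- cells, a difference of -3.15 ± 0.11, while Fcgrt, which recycles IgG, rose by 1.29 ± 0.10.

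AP-1 and immediate early factors were called lower in 6 of 12 and higher in none, with a median of -0.75 (-0.32 under neqc), and 1 was called higher without WT replicate 1. Fosb fell by 2.45 ± 0.65, Atf3 by 1.92 ± 0.13 and Jun by 1.33 ± 0.12, and Fos and Egr1 read 10.58 and 10.66 against 9.54 and 9.64 and 11.22 and 11.40 against 10.21 and 10.32. Alternative activation markers were split, with 6 called higher and 4 lower of 14, so that the list as a whole had no direction (median 1.31, but 0.25 under neqc and -0.31 over the 10 detected on all 4 arrays). The lectins Mgl2 and Clec10a (listed as Mgl1) rose by 2.39 ± 0.09 and 1.66 ± 0.10 together with Ccl17, while Arg1, Retnla, Pparg and Chil3 fell. Mrc1, the mannose receptor, read 9.74 and 9.79 against 9.54 and 9.45 and did not pass the test.

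Among 11 nitric oxide, arginine and polyamine enzymes, 3 were called higher, the undetected Nos2 included, and 2 lower, with a median of 0.15 (0.00 to 0.23 over the settings tried). Odc1, which opens polyamine synthesis, rose by 1.79 ± 0.09, and Ass1, which regenerates arginine, by 0.80 ± 0.10. Besides Arg1, the arginine transporter Slc7a2 fell by 0.88 ± 0.09. Arg2 and the cofactor enzyme Gch1 did not pass the test, at 0.19 ± 0.14 and -0.06 ± 0.08.

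Stress response genes moved both ways. Of 16 unfolded protein and integrated stress response genes, 8 were called higher and 6 lower, with a median of 0.38. In a fit of the 4 unstimulated arrays alone these counts were 7 and 4. Asns, which makes asparagine and is induced when amino acids run short, read 6.68 and 6.35 in WT and 9.61 and 9.73 in iNOS-/- cells, a difference of 3.16 ± 0.13. The serine synthesis enzymes Phgdh and Psat1 rose by 2.60 ± 0.13 and 1.66 ± 0.13, and Chac1, which degrades glutathione, was undetected in WT and at least 13.9-fold higher. Atf3, the endoplasmic reticulum cochaperone Dnajb9 and Ddit3 (CHOP) fell by 1.92 ± 0.13, 1.44 ± 0.12 and 1.04 ± 0.09, and Atf4 read 10.75 and 10.91 against 10.46 and 10.39. The Asns promoter is shown because it holds the amino acid response letters TGATGAAAC, in capitals, which no other of the 16 promoters of the list and 0.213% of all promoters hold.
Asns promoter, chr6:7693214-7693262, minus strand: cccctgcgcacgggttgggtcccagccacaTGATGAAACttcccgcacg

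Of 19 myeloid lineage transcription factors 3 were called higher and 6 lower, with a median of -0.34, and the 6 were 3 without WT replicate 2 or either iNOS-/- array. Mycl1, a MYC family factor of dendritic cells, was detected on 1 WT array and went from 1.74 and 2.70 to 8.11 and 8.09. Cebpe and Irf4 rose by 1.28 ± 0.12 and 1.25 ± 0.10. Zeb2, Cebpa and Cebpb fell by 1.14 ± 0.10, 1.01 ± 0.24 and 0.70 ± 0.08, and Bhlhe41 (listed as Bhlhb3) was undetected in iNOS-/- cells and at least 2.66-fold lower. Spi1 (listed as Sfpi1) and Irf8, both basic to the lineage, did not pass the test.

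Whether these differences outlasted activation was asked by testing the difference before stimulation against that after it. It differed in 5815 of 13868 probes (41.9%), and by gene in 4429 of 10163 (43.6%). Before stimulation 34.0% of genes were called and after it 50.2% (25.2% higher and 25.0% lower, and 48.5% of probes), on arrays that the comparisons do not share. Of the 1723 genes higher before, 634 (36.8%) were also higher after, 520 (30.2%) were lower after and 569 were not called. The 634 were 24.8% of the 2557 genes higher after. Of the 1731 genes lower before, 659 (38.1%) were lower after, 25.9% of the 2541 lower after, and 491 (28.4%) were higher.

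Cell division genes changed sign. For mitosis and spindle genes the median was 1.57 before and -1.60 after, with 16 called higher before and 15 lower after, and the difference was called in 16 of 18. For DNA replication genes the medians were 1.39 and -0.82, and 22 of 23 differed. Plk1 was 2.29 higher before, and its mean after was 8.16 in WT M1 and 6.54 in iNOS-/- M1 cells. MHC class II genes kept a positive but smaller median, 2.28 before and 0.50 after, and 9 of 10 differed. Interferon-stimulated genes went from a median of 0.50 to 1.73, and Toll-like receptors from -0.82 to 0.51.

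Among genes detected on all 8 arrays, the largest single differences were as follows. For Asgr2, Asb2 and Ffar2, the difference before exceeded that after by 8.10 ± 0.48, 7.44 ± 0.27 and 7.12 ± 0.15 (SE). In the other direction Foxq1, Fcgr4 and Ccrl2 differed by -4.26 ± 0.22, -4.15 ± 0.15 and -4.12 ± 0.15. Fcgr4 and Ccrl2 were lower in iNOS-/- cells before stimulation and higher after it, Ccrl2 reading 9.71 and 9.85 in WT M1 and 11.52 and 11.58 in iNOS-/- M1 cells.

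**Figure D5:**
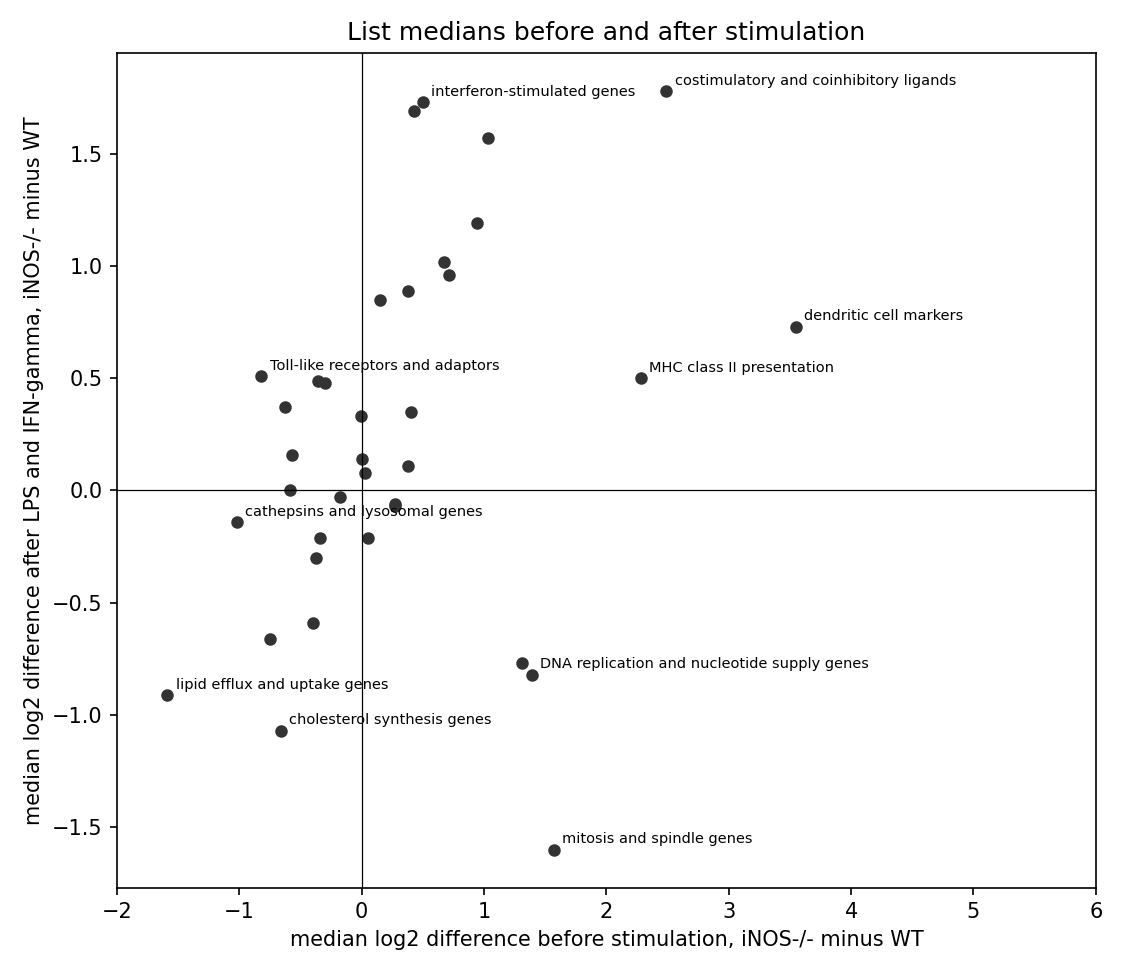
Median log2 difference, iNOS-/- minus WT, of each list before stimulation (horizontal axis) and after LPS and IFN-γ (vertical axis), 1 point per list with at least 9 tested members. Mitosis and spindle genes lie at 1.57 before and -1.60 after, and MHC class II genes at 2.28 and 0.50.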

How the data were processed

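RNA of 8 samples, 2 per group, was hybridised to Illumina mouse bead arrays, and the labels do not say whether the 2 come from separate cultures. The authors deposited a non-normalized table with a probe intensity and a detection p-value per array, exported from GenomeStudio per the labels, and 25697 probes carry a sequence and a symbol. The submitters' notes also name limma 3.14.4. The values are already centred near 0, with 25.2% to 26.9% of probes below 0 on the unstimulated arrays, so background had been removed although the header says otherwise. The deposited normalized values were not used for tests.

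Each array was scaled by rank-invariant probes to the mean array (scale factors 0.801 to 1.3), with a floor of 1 before the log2. Tests covered the 13868 probes that 2 or more arrays detected (detection p below 0.05). All 4 groups were fitted in limma 3.58.1 (R 4.3.3, MASS 7.3.60.0.1), with Benjamini-Hochberg adjustment over all tested probes, and the scripts were tested on simulated data. There 200 of 14312 tested probes were given a change. Of the calls over all probes 26.5% were false, well above the nominal share, most of them on probes not detected on all 4 arrays. Among probes detected on all 4 the share was 4.17%, below the nominal one. In the real data 32.1% of probes were called, so these shares do not carry over to its counts. Counts over all tested probes or genes may still hold an excess of false calls. A lower limit of a fold was counted against the lowest detected signal of each array. Such limits hold for the main normalization, and differences under neqc could be smaller. Probes of near-identical genes (class I and II chains, haemoglobins, Csf2rb and Csf2rb2) may share signal.

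Named genes were the 12 largest called differences each way among probes detected on all 4 unstimulated arrays, the 5 largest lower limits each way, Nos2, the 3 largest changes of the difference each way, and leading members of 42 gene lists. The 12 each way were also required to have groups that do not overlap. Other members named for their role were chosen after their values were seen. A few genes that this rule would name are not reported here. The members and lists were chosen with earlier results of these data known. Current symbols and promoters came from RefSeq (GRCm38.p6). Alternatives were quantile and neqc normalization, a floor of 16, other filters, a trended prior, a replicate block, 1 value per gene, the 4 unstimulated arrays alone, a 2-fold minimum and leaving out each array.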

Additional observations from a re-analysis of the deposited data

Results flagged for a closer look

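The difference between genotypes before stimulation was itself different from that after LPS and IFN-γ in 5815 probes (limma, a test of the difference of differences). Among the genes named above it was larger before than after, iNOS-/- over WT, by 7.44 on the log2 scale for Asb2, 5.71 for H2-DMb2, 7.12 for Ffar2, 5.52 for Amica1, 8.10 for Asgr2, 3.86 for Il4i1, 6.26 for Adra2a, 3.53 for Serpina3g, 2.93 for Bzrap1, 2.23 for Ccnd2, 2.62 for EG433016 and 4.69 for Ltb. In the other direction the values were -2.49 for Apoe, -2.27 for Mamdc2, -4.57 for OTTMUSG00000016703, -2.0 for Arg1, -4.26 for Foxq1, -2.61 for Eno2, -2.94 for Npy, -3.63 for Vegfa, -4.15 for Fcgr4 and -4.12 for Ccrl2. Groups of 2 arrays are too small for a check of single arrays that stand apart.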

How the results depend on the processing

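The 4447 probes called between unstimulated genotypes became 1966 with a 2-fold minimum and 2685 to 4424 with 1 array left out, and the 5815 whose difference changed with activation became 3873 and 4501 to 5263. Other settings gave 3775 to 5675 and 5314 to 7078 probes, and fits by gene 3451 to 3665 and 4395 to 4587 genes. The share of calls that were higher ran from 45.5% to 56.4% and from 45.3% to 54.5%. Numbered replicates did not deviate together (correlations from -0.037 to 0.025). The values thus show no pairing by number, but they cannot tell whether samples of the same number were prepared together. A fit with the replicate number as a block called 3887 and 5314 probes. No named gene reversed in 518 recomputed differences, Nos2 being at 0 with a floor of 16, and 23 lost the call, in OTTMUSG00000016703, Slc27a6, Fbxo32, Arsg and Nos2. Of 1176 recomputed list counts 168 moved by over 1.5 times. List medians near 0 changed sign, from 0.03 to -0.04 for cytokine receptors, 0.05 to -0.19 for prostaglandin and leukotriene enzymes and -0.01 to 0.12 for respiratory chain subunits, as did glycolysis genes (-0.06 to 0.11). The cause was not tested. Signal near background limits every gene not detected on all 4 arrays.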

Other observations

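Further gene groups are given against the 34.0% of all genes called, 17.0% each way. Among 10 p53 target genes 5 were called lower and 1 higher, with a median of -0.37. Gdf15, a stress-induced cytokine, fell from 8.50 and 8.49 to 6.66 and 6.67, and Sesn1 by 1.68 ± 0.17 (SE, n = 2 arrays per group), whereas Cdkn1a, the cell cycle inhibitor p21, rose by 0.85 ± 0.08. Matrix proteases and inhibitors were lower in 6 of 14 and higher in 3, and the 3 were 1 without WT replicate 2 or WT M1 replicate 1. Timp2, a protease inhibitor, fell from 10.08 and 10.10 to 7.35 and 7.35, and Mmp13, a collagenase, by 1.37 ± 0.10. Of 14 integrins and adhesion molecules 4 were called higher and 3 lower. Itgb7, which pairs with Itgae, rose by 0.90 ± 0.09, and Itgb5 fell by 1.50 ± 0.08.

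Iron genes were called lower in 4 of 12 and higher in 2. The exporter Slc40a1 (ferroportin) fell from 10.07 and 9.92 to 8.49 and 8.56 while the importer Tfrc rose by 1.22 ± 0.14. The 2 were 1 without WT replicate 1 or any 1 of the iNOS-/- and M1 arrays, and the 4 were 2 without iNOS-/- replicate 2. Of NRF2 targets 26.7% were called, fewer than of all genes. They were lower in 3 of 15, led by Hmox1, which degrades haem (by 1.15 ± 0.21), and higher in 1, Nqo1, whose call was lost without WT replicate 2 or iNOS-/- replicate 1. NADPH oxidase and antioxidant genes were lower in 7 of 16, led by the oxidase subunit Ncf1 (by 0.77 ± 0.15), a count of 1 or 2 without any 1 of the unstimulated arrays and of 4 without either WT M1 array. The 1 called higher, Sod1, was lost without either WT array or iNOS-/- replicate 1.

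Glycolysis and hypoxia-response genes were lower in 3 of 15 and higher in 1 (26.7% called, below the share of all genes). Vegfa and Pfkl (by 1.18 ± 0.10) fell and Pfkp, another phosphofructokinase, rose by 1.15 ± 0.09. The 1 was 2 without iNOS-/- replicate 1 or either iNOS-/- M1 array. Among 22 respiratory chain subunits (9.09% called) Ndufa4 rose by 1.01 ± 0.09 and Uqcrh was called lower, a call lost without any 1 of the 8 arrays. Ribosomal proteins were higher in 10 of 19, by 0.40 to 0.87, and the 10 were 3, 5, 5 and 4 without WT replicates 1 and 2 and iNOS-/- replicates 1 and 2, and 6 without WT M1 replicate 1. Heat shock chaperones were lower in 3 of 12 (25% called, below the share of all genes), which fell to 1 or 0 without any 1 array other than iNOS-/- replicate 2.

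Complement genes were lower in 3 of 14 and higher in 2 (35.7% called, near the share of all genes), with C1qb and C1qc down by 0.64 ± 0.10 and 0.39 ± 0.08 and C1qa, the third chain of the same protein, up by 0.65 ± 0.09. The 3 were 1 without WT replicate 2 or iNOS-/- replicate 1, and the 2 were 1 without WT replicate 1 or iNOS-/- replicate 2. Of 12 prostaglandin and leukotriene enzymes 3 were called higher and 2 lower (41.7%). Ltc4s and Hpgds (listed as Ptgds2) fell by 1.32 ± 0.13 and 1.20 ± 0.12, and Alox5 rose by 0.96 ± 0.21. The 3, which include Ptgs2, undetected on all 4 arrays, were 1 without WT replicate 2 or iNOS-/- replicate 2.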
